A study of Mus musculus with 4 samples.

Results

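The comparison is between an injured and an uninjured hindlimb of control mice, measured by droplet single-cell RNA sequencing at day 7. It uses 2 of the 4 libraries of the study, control injured and control uninjured, which together hold 811 of the study's 1241 filtered cells. Both groups are littermate controls of Ddr2 slie/slie mice. Their sample titles carry the tag WT, and the labels give no strain, age or sex. Both groups come from the same kind of mouse: each animal received a burn over 30% of the body surface on the back and a cut through the left Achilles tendon. The injured library holds the left limb and the uninjured library the right limb, so the uninjured limb also belongs to a burned animal. The tissue was the Achilles tendon with its ends at muscle and heel bone and the soft tissue behind the tibia, digested with collagenase and dispase. Tissue of 2 mice was pooled into 1 library for each group. There is therefore no replicate, no p-value is given, and the intervals printed (95%, exact) cover the error of counting molecules only.

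Members were chosen by library label and by 2 filters on barcodes: at least 200 genes detected and at most 20% of unique molecular identifiers (UMIs) from mitochondrial genes. In the injured library 751 of 842 barcodes passed, with 4032783 UMIs in all and a median of 1641 UMIs per cell. In the uninjured library 60 of 1075 barcodes passed, with 242888 UMIs and a median of 1337 per cell. Most of the remaining uninjured barcodes, 991, had fewer than 200 genes. Levels are given as CPM, the UMIs of a gene per 1000000 UMIs of its library. A single UMI was worth 0.248 CPM in the injured library and 4.12 CPM in the uninjured library. A gene with no UMI is given a bound from 3 counts, which is 0.744 CPM and 12.4 CPM. The 3 deepest uninjured cells, an endothelial-like, an erythroid-like and a pericyte or smooth muscle-like cell, held 33.9% of that library's UMIs. Cells with under 0.5% mitochondrial UMIs made up 50.5% of the injured and 5% of the uninjured cells, and hemoglobin transcripts were 6.09% and 10.1% of UMIs. The libraries share 1 barcode sequence, and it is not among the filtered cells of both.

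In the background biology, a cut tendon passes through inflammation, in which neutrophils and then monocytes enter from the blood, and then through a phase in which fibroblast-like cells divide and lay down collagen. Neutrophils carry the calcium-binding proteins S100a8 and S100a9 and release chemokines that attract further leukocytes. A burn combined with tenotomy is a mouse model of trauma-induced heterotopic ossification, in which the healing site later forms cartilage and bone. Intact tissue around a tendon holds resting fibroblasts, small vessels with their smooth muscle, and nerves wrapped by Schwann cells.

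The 4 genes with the largest differences towards the injured limb are S100a9, S100a8, Cxcl2 and Il1b, and their promoters are shown because these genes, mainly of the same cell class, were higher together. S100a8 and S100a9 are neighbours on chromosome 3 whose proteins form calprotectin, Cxcl2 is a neutrophil-attracting chemokine, and Il1b is the cytokine interleukin 1 beta. The sequences are RefSeq promoters on build GRCm38.p6, from 250 bases before to 50 after each annotated start, written 5′ to 3′ on the gene's strand. Capitals mark the letters TATAAA, as in a TATA box, or an NF-kB motif (GGG, any 2 bases, then TTTCC), each searched on both strands. S100a9 is at chr3:90695672-90695971 (minus strand), S100a8 at chr3:90668821-90669120 (plus), Cxcl2 at chr5:90903649-90903948 (plus) and Il1b at chr2:129371090-129371389 (minus).
S100a9: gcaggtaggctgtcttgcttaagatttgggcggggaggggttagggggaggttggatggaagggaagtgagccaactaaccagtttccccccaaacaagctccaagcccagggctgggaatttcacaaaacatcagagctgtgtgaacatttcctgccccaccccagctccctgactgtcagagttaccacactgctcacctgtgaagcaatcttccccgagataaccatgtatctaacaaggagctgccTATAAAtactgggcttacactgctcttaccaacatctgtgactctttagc
S100a8: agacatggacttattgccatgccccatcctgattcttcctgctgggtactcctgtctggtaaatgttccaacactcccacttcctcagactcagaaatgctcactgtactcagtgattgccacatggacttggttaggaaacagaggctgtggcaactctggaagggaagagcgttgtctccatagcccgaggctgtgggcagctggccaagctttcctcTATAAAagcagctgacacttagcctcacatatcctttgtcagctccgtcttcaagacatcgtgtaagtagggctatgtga
Cxcl2: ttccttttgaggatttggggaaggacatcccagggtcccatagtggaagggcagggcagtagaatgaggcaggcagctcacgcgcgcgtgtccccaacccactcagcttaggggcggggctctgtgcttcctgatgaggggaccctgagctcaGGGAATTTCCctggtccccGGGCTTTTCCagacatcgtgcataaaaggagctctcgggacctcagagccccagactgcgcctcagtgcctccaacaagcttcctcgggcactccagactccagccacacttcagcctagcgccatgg
Il1b: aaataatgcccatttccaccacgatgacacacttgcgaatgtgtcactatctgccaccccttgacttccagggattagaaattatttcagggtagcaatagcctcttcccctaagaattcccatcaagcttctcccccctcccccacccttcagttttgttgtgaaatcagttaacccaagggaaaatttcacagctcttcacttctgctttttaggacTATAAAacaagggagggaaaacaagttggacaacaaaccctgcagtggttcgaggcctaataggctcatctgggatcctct

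TATAAA stood in 3 of these 4 promoters, starting 30 bases before the annotated start in S100a8, 31 before in Il1b and at the start itself, which is not the usual place of a TATA box, in S100a9, and the NF-kB motif stood at 2 places in that of Cxcl2, the nearer starting 78 bases before the annotated start. Of the 15 genes with the largest differences towards the injured limb, 11 had a promoter in the table. TATAAA occurred in 4 of these 11 and in 13.6% of all 32851 promoters, and the NF-kB motif in 2 of the 11 (Cxcl2 and Krt14) and in 1.63% of all promoters. Of the 15 genes with the largest differences towards the uninjured limb, 11 also had a promoter, and 0 of them held either motif. A match is a string of letters, not a measured binding site.

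The cells of the 2 libraries were of different kinds, and this frames every gene below. Clusters were named by markers and are called "-like". In the injured library mesenchymal-like cells, the fibroblast-like cells of connective tissue, were 305 of 751 cells (40.6%, interval 37.1 to 44.2), 22.9% with at least 500 genes per cell and 29.8% when cells below 0.5% mitochondrial UMIs were left out. Neutrophil-like cells were 147 (19.6%), monocyte or macrophage-like cells 114 (15.2%) and dendritic-like cells 42 (5.59%). These 3 leukocyte classes were 40.3% of the injured cells (36.8 to 44.0) and 1 of 60 uninjured cells (1.67%, 0.0422 to 8.94). Keratinocyte-like cells, from skin, were 32 injured cells and 0 uninjured cells, and gland-like cells 6 and 0. Erythroid-like cells were 24 and 1, and the leading genes of their cluster also included the T cell genes Cd3g and Cd2.

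In the uninjured library the classes were those of vessels and nerves. Endothelial-like cells were 17 of 60 (28.3%, 17.5 to 41.4), pericyte or smooth muscle-like cells 13 (21.7%, 12.1 to 34.2) and Schwann or glial-like cells 13. The injured library held 26 endothelial-like cells (3.46%), 54 pericyte or smooth muscle-like cells (7.19%) and 0 Schwann or glial-like cells, which allows a share of up to 0.490%. Mesenchymal-like cells were 3 of the 60 uninjured cells (5%), 7 of 60 (11.7%) with the control libraries clustered alone and 1 of 46 (2.17%) without called doublets. In the same library 0 neutrophil-like cells among 60 allowed a share of up to 5.96%. A further 12 uninjured cells and 1 injured cell stayed unnamed: 10 of the uninjured ones formed a cluster led by Mmrn1 and Prox1, genes of lymphatic vessels, and the others a cluster with leading genes of both fibroblasts and muscle fibres. The label, hindlimb tissue around the tendon, was checked against markers: 4 of 9 tenocyte markers had no UMI in the uninjured library and 2 of 9 in the injured library. Muscle fibre markers were scarce, with 12 and 53 UMIs over 10 genes. With at least 500 genes per cell the endothelial-like share of the uninjured library was 9.76%, and the neutrophil-like share of the injured library was 6.18% when cells below 0.5% mitochondrial UMIs were left out. How far dissociation and barcode calling set these shares was not tested.

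**Figure D1:**
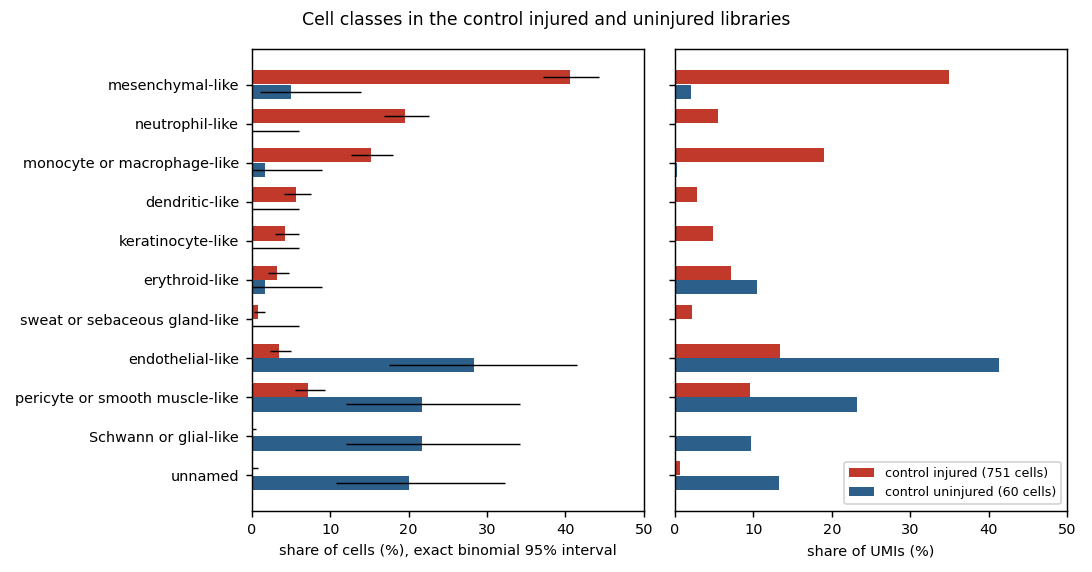
Share of cells (left, with exact binomial 95% intervals) and share of UMIs (right) by cell class, in percent, for the control injured (red, 751 cells) and control uninjured (blue, 60 cells) libraries. Leukocyte-like and mesenchymal-like classes hold most injured cells, while vessel and nerve classes lead the uninjured library, and endothelial-like cells hold 41.3% of uninjured and 13.4% of injured UMIs.

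Over all cells, 5599 genes had a mean of at least 25 CPM and were compared. Of these, 902 (16.1%) were at least 2-fold higher and 911 (16.3%) at least 2-fold lower in the injured library, and the median log2 ratio was -0.03. In 128 genes the uninjured library had no UMI and in 6 genes the injured library had none. Such a gene reaches the limit only through the library where it is high, so its call was fixed by the filter. Counts of such members are no evidence about a list. The same holds where a gene has so few UMIs in 1 library that a mean of 25 CPM forces a 2-fold ratio. Examples below are Cd68, H2-Ab1, Top2a, Mki67, Bmp1, Plod2, Mmp3, Prg4, Sox9, C5ar1, Cfp, C3 and Dpt as higher. Mertk, Sox5, Lama5, Cfd and Mbp are examples as lower. Where fixed members are counted below, only those with no UMI in a library are included. The interval of the ratio included 1 for 102 of the higher and 32 of the lower genes. Without the 3 deepest cells of each library 736 genes were higher and 1380 lower, and with each cell thinned to 500 UMIs 540 were higher and 2188 lower. Over all deposited barcodes, with no filter, 1646 were higher and 226 lower, but the smallest deposited barcode held 500 UMIs in the injured and 48 in the uninjured library, so that comparison sets unlike barcodes side by side. In summed libraries, more cells of a class and more RNA per cell cannot be told apart.

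**Figure D2:**
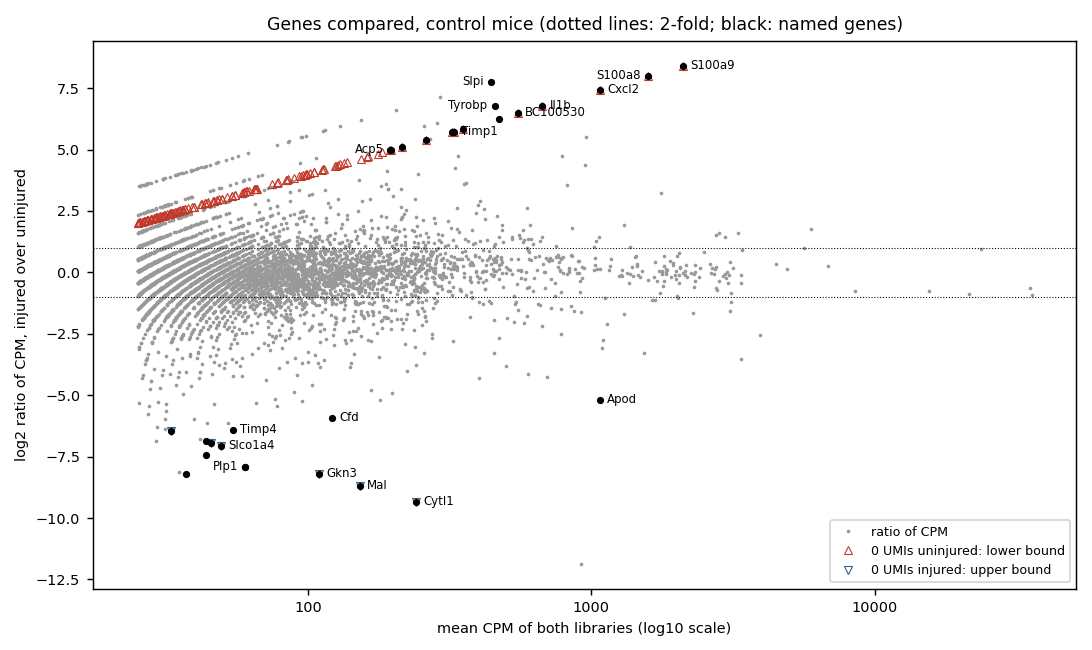
Log2 ratio of CPM, injured over uninjured, against mean CPM (log scale) for the 5599 genes compared. Open triangles are bounds for genes with no UMI in a library, black points are genes with the largest differences in each direction, and dotted lines mark 2-fold; S100a9 and S100a8 stand highest, and Cytl1 and Mal lie at the lower end.

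Genes of neutrophils led the differences towards the injured limb. S100a9 had 17027 UMIs (4222 CPM) in the injured library and 0 in the uninjured library, at least 342-fold higher. S100a8 had 12761 UMIs (3164 CPM) against 0, at least 256-fold higher. Neutrophil-like cells held 93.5% of the S100a9 UMIs and 90.4% of the S100a8 UMIs of the injured library, a class with 0 cells in the uninjured library. Over all 1075 uninjured barcodes, filtered out ones included, 6 UMIs of each were found.

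Summed over the neutrophil list of 18 genes, the level was 8838 CPM in the injured and 61.8 CPM in the uninjured library. Of the 12 genes measured, 10 had no uninjured UMI, so their call as higher was fixed by the filter. Clec4e, a receptor for damaged cells and fungi, had 1419 UMIs against 0 (at least 28.5-fold). Csf3r, the receptor for the neutrophil growth factor G-CSF, had 241 against 0 (at least 4.84-fold), and Cxcr2, the receptor for Cxcl2, had 263 against 1, a ratio of 15.8 (2.82 to 628). Lcn2, an iron-scavenging granule protein, did not differ in this way: its 215 and 14 UMIs are 53.3 and 57.6 CPM, a ratio of 0.925 (0.539 to 1.72). Mmp9, a gelatinase on the same list, was at least 20.7-fold higher, but 86.8% of its UMIs were in monocyte or macrophage-like cells.

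The list of 22 chemokines and cytokines summed to 6362 CPM in the injured and 441 CPM in the uninjured library. Of 15 members measured, 9 had no uninjured UMI, so their call as higher was fixed by the filter. Cxcl2 had 8667 UMIs (2149 CPM) against 0 (at least 174-fold) and Il1b 5405 (1340 CPM) against 0 (at least 109-fold). Their sources in the injured limb overlapped: neutrophil-like cells held 83.7% of Cxcl2 and 64.8% of Il1b UMIs, and monocyte or macrophage-like cells most of the rest. Other members came from other cells. Cxcl5, a further neutrophil attractant, had 1450 UMIs against 5 (17.5-fold, 7.47 to 53.9) and 98.9% of them were in mesenchymal-like cells. Ccl2, which attracts monocytes, had 802 against 0 (at least 16.1-fold), with 74.6% in mesenchymal-like cells. Ccl4, a chemokine that attracts monocytes and lymphocytes, had 1297 against 0 (at least 26.0-fold), with 98.0% in neutrophil-like cells. The members that were less than 2-fold apart were Csf1, the macrophage growth factor, at 35.2 and 28.8 CPM, and Nfkbia, an inhibitor of NF-kB, at 504 and 354 CPM.

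The 17 macrophage genes found, of 18 listed, summed to 1419 CPM in the injured and 136 CPM in the uninjured library. Of 10 members measured, 5 had no uninjured UMI, so their call as higher was fixed by the filter. C1qb, a complement subunit made by tissue macrophages, had 1404 UMIs (348 CPM) against 7 (28.8 CPM), a ratio of 12.1 (5.85 to 30.1), and 98.0% of the injured UMIs lay in monocyte or macrophage-like cells. Without leukocyte-, keratinocyte-, gland- and erythroid-like cells its log2 ratio was -2.44, in the other direction. Cd68, a lysosomal protein of macrophages, had 720 against 2, a ratio of 21.7 (5.98 to 179). Mertk, a receptor for dying cells, went the other way at 11.2 and 41.2 CPM, 3.69-fold lower (1.66 to 7.43), and 50% of its 10 uninjured UMIs were in endothelial-like cells. Among the 15 genes with the largest differences, the signalling adaptors Tyrobp and Fcer1g had 3640 and 3755 UMIs in the injured library and 2 and 3 in the uninjured one. Acp5, the tartrate-resistant phosphatase of osteoclasts and some macrophages, had 1585 against 0 (at least 31.8-fold), with 91.4% in monocyte or macrophage-like cells. Cd14, a co-receptor for bacterial lipopolysaccharide, had 1729 against 0 (at least 34.7-fold), 56.9% of them in neutrophil-like cells.

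All 6 measured genes of MHC class II antigen presentation were at least 2-fold higher, 2 of them with no uninjured UMI, and the list summed to 3282 and 161 CPM. Cd74, the invariant chain, had 7299 UMIs (1810 CPM) against 21 (86.5 CPM), a ratio of 20.9 (13.7 to 33.8). H2-Aa had 2529 against 8 (19.0-fold, 9.65 to 44.1) and H2-Ab1 1529 against 3 (30.7-fold, 10.5 to 149). Dendritic-like cells held 54.3% of the injured Cd74 UMIs, and the only macrophage-like cell of the uninjured library held 66.7% of the uninjured ones. Interferon response genes, which leukocytes also express, showed no such shift: 0 of 6 measured were at least 2-fold higher and 2 were lower. Bst2, a membrane protein that tethers viruses, was at 117 and 399 CPM, 3.43-fold lower (2.72 to 4.27), with 75.3% of its uninjured UMIs in endothelial-like cells.

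**Figure D3:**
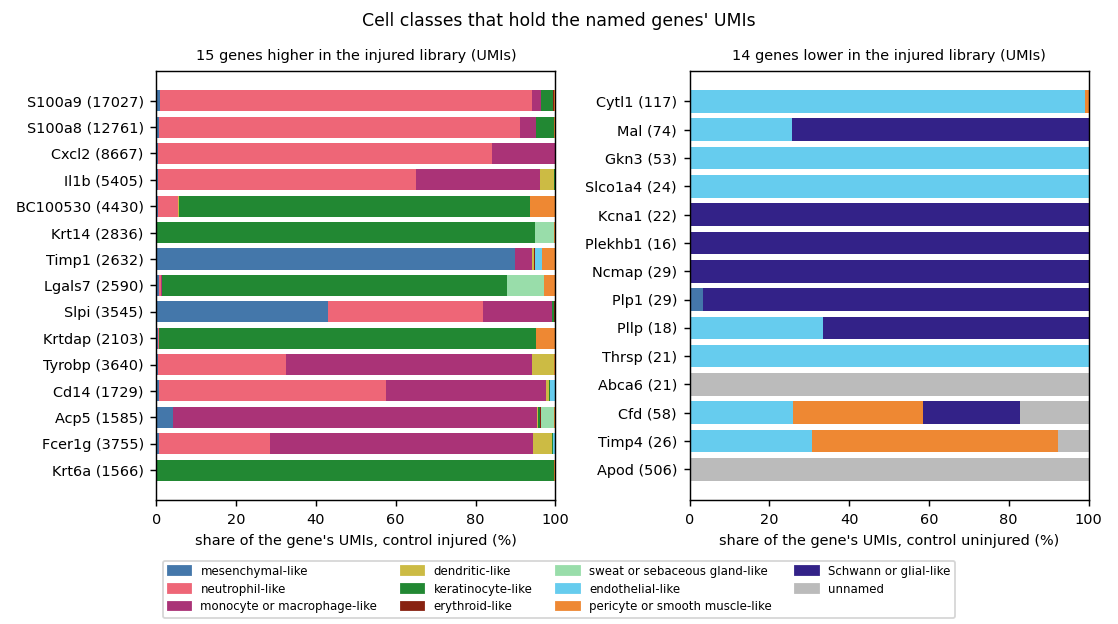
Share of each gene's UMIs (percent) by cell class, for genes with the largest differences towards the injured library (left, injured UMIs) and towards the uninjured library (right, uninjured UMIs), with UMI totals in brackets. Neutrophil-like, keratinocyte-like and monocyte or macrophage-like cells hold most UMIs on the left, and Schwann or glial-like and endothelial-like cells on the right.

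The list of 17 keratinocyte genes summed to 3686 CPM in the injured and 32.9 CPM in the uninjured library. Of 13 members measured, 10 had no uninjured UMI, so their call as higher was fixed by the filter. Krt14, a basal epidermal keratin, had 2836 UMIs (703 CPM) against 0 (at least 56.9-fold), and Krt6a, a keratin of wounded epidermis, 1566 against 0 (at least 31.4-fold). Keratinocyte-like cells held 94.7% and 99.7% of these UMIs. The difference is that of 32 skin cells in 1 library against 0 in the other. Whether skin entered the dissection differently on the 2 sides was not tested. BC100530, a cystatin-family gene with near-identical neighbouring copies whose reads may be split, had 4430 UMIs against 0, with 88.0% in keratinocyte-like cells and 277 UMIs in 4 pericyte or smooth muscle-like cells.

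Genes of fibrous matrix were higher over the whole injured library, where mesenchymal-like cells were 305 of 751 against 3 of 60. Within that class Col1a1 was at 24230 CPM in the injured and at 65621 CPM in the uninjured library, where its 318 UMIs came from 2 of the 3 cells. Of 17 measured genes for fibrillar collagens and their processing (19 listed), 15 were at least 2-fold higher and 0 lower, with a median log2 ratio of 1.77. The shares are 88.2% and 0%, beside 16.1% and 16.3% of all genes compared. Among the higher members, the calls of Bmp1 and Plod2 were fixed by the filter. Col1a1, a chain of collagen I, had 36961 UMIs (9165 CPM, 9072 to 9259) in the injured library and 660 (2717 CPM, 2514 to 2933) in the uninjured one, a ratio of 3.37 (3.12 to 3.65). Mesenchymal-like cells held 92.2% of the injured UMIs. In the uninjured library 47.7% of the Col1a1 UMIs came from 1 cell. Col3a1, the collagen of early scar, was 2.68-fold higher (2.42 to 2.97), at 4303 and 1606 CPM, with 63.3% of its uninjured UMIs in 1 cell.

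Enzymes and chaperones that fold, trim and crosslink collagen were also higher, at fewer counts. Lox, which crosslinks collagen, had 1181 UMIs against 9 (7.90-fold, 4.15 to 17.3), Plod2, a lysyl hydroxylase, 515 against 4 (7.75-fold, 3.01 to 28.6), and Serpinh1, the collagen chaperone, 2779 against 62 (2.70-fold, 2.10 to 3.53). Bmp1, the protease that trims procollagen, had 329 against 1, a ratio of 19.8 (3.53 to 785). Plod1 and Adamts2 were less than 2-fold apart and their intervals included 1.

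Matricellular genes of healing tissue were higher for 14 of 17 measured members (19 listed), with a median log2 ratio of 2.24. The share is 82.4%, beside 16.1% of all genes compared. Postn, periostin, had 6125 UMIs (1519 CPM) against 14 (57.6 CPM), a ratio of 26.3 (15.7 to 48.2). Tnc, tenascin C, had 1407 against 8 (10.6-fold, 5.36 to 24.6). Spp1, osteopontin, had 6111 against 31 (11.9-fold, 8.36 to 17.5), and 65.4% of the injured UMIs lay in monocyte or macrophage-like cells. Timp1, an inhibitor of metalloproteinases, had 2632 (653 CPM) against 0, at least 52.8-fold higher, with 89.8% in mesenchymal-like cells. Cyr61, a target of YAP and TAZ, was at 168 and 169 CPM, and Thbs4, a tendon thrombospondin, was at 67.2 and 78.2 CPM.

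The proteases that remodel this matrix, with their inhibitors, were higher for 9 of 12 measured members (21 listed) and lower for 1. The shares are 75% and 8.33%, beside 16.1% and 16.3% of all genes compared. However, 2 members had no uninjured UMI, and their calls, like that of Mmp3, were fixed by the filter. Mmp3, stromelysin, had 892 UMIs against 1, a ratio of 53.7 (9.62 to 2124), and Mmp14, a membrane-bound collagenase, 1705 against 13 (7.90-fold, 4.61 to 14.9). Ctsk, cathepsin K, had 2688 against 13 (12.5-fold, 7.27 to 23.4), with 69.9% in monocyte or macrophage-like cells. Timp3, which binds to the matrix, was lower, at 73.4 and 473 CPM (6.45-fold, 5.15 to 8.03), and its 115 uninjured UMIs were spread over 33 of the 60 cells.

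Genes of cartilage, tendon and bone were uneven. Of 6 measured chondrogenic genes (15 listed), 5 were at least 2-fold higher (83.3%, beside 16.1% of all genes compared), 2 of them with no uninjured UMI. Sox5, a partner of Sox9, was lower, at 12.4 and 41.2 CPM (3.32-fold, 1.5 to 6.63). The calls of Prg4, Sox9 and Sox5 were also fixed by the filter, so these counts are no evidence about the list. Comp, a cartilage and tendon matrix protein, was higher here. Its log2 ratio was -0.57 over all deposited barcodes, -1.43 with cells thinned to 500 UMIs and -0.46 with cells weighted equally. Prg4, lubricin, had 2041 UMIs (506 CPM) against 2, a ratio of 61.5 (17.0 to 508), Acan, aggrecan, 251 against 0 (at least 5.04-fold), and Sox9, the regulator of chondrocyte fate, 162 against 3, a ratio of 3.25 (1.09 to 15.9). Mesenchymal-like cells held 97.6% of the injured Prg4 UMIs and 96.9% of those of Sox9. Col2a1, the main cartilage collagen, was under the limit of 25 CPM, so no cartilage collagen is described. Runx1, a regulator of blood and skeletal progenitors, had 846 UMIs against 0 (at least 17.0-fold).

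Tendon genes were split, 5 of 10 measured higher and 1 lower (50% and 10%, beside 16.1% and 16.3% of all genes compared). Bgn, biglycan, had 4115 UMIs (1020 CPM) against 40 (165 CPM), a ratio of 6.20 (4.54 to 8.69), while Tnmd, tenomodulin, was at 27.0 and 37.1 CPM and its interval included 1. Dcn, decorin, was the lower member, at 1046 and 2297 CPM (2.20-fold lower, 2.01 to 2.40). A single uninjured cell held 84.9% of the Dcn UMIs, and without the cell with the most Dcn UMIs in each library the log2 ratio was 1.34, in the other direction. Of the osteogenic list only 2 of 14 genes could be measured, Spp1 above and Alpl, alkaline phosphatase, which was 16.6-fold lower (7.77 to 35.5) with all 16 uninjured UMIs in endothelial-like cells. Runx2, Sp7 and Bglap were under the limit.

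Among signalling genes, 6 of 11 measured ligands and inhibitors of the TGF-beta, BMP and Wnt pathways (23 listed) were higher and 0 lower. The shares are 54.5% and 0%, beside 16.1% and 16.3% of all genes compared. The median log2 ratio of this list was 1.02, and -0.23 with each cell thinned to 500 UMIs. Sfrp1, a secreted Wnt inhibitor, had 2320 UMIs (575 CPM) against 23 (94.7 CPM), a ratio of 6.08 (4.04 to 9.60), and all 23 were in 1 uninjured cell. Tgfb1 had 457 against 7 (3.93-fold, 1.89 to 9.84), and Tgfb2 was at 35.0 and 41.2 CPM. Ddr2, the collagen receptor after which the study is named, had 115 UMIs (28.5 CPM) against 3 (12.4 CPM), a ratio of 2.31 whose interval, 0.770 to 11.4, includes 1. Mesenchymal-like cells held 64.3% of its injured UMIs.

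Resting fibroblast genes were mixed, with 3 of 12 measured members higher and 5 lower (17 listed). The shares are 25% and 41.7%, beside 16.1% and 16.3% of all genes compared. Without leukocyte-, keratinocyte-, gland- and erythroid-like cells 4 were higher and 4 lower, with a median log2 ratio of 0.0907. Gsn, gelsolin, was at 283 and 819 CPM (2.90-fold lower, 2.48 to 3.37), and Smoc2, a matrix protein, at 72.9 and 288 CPM (3.95-fold lower, 3.00 to 5.15). Apod, apolipoprotein D, was at 56.5 and 2083 CPM, 36.8-fold lower (31.5 to 43.3). In the uninjured library 98.0% of the Apod UMIs, 59.3% of Gsn and 97.1% of Smoc2 were in 1 cell each. Without the cell with the most Apod UMIs in each library, the log2 ratio of Apod was 0.04. Dpt, dermatopontin, and Cxcl14, a chemokine, were higher, 4.61-fold (1.78 to 17.0) and 4.56-fold (2.08 to 12.5). Dpt had so few uninjured UMIs that its call was fixed by the filter. Cfd, the complement factor known from fat cells, had 16 UMIs against 58 (60.2-fold lower, 34.1 to 112), the 58 spread over 21 of 60 cells of several classes. All 1075 uninjured barcodes together held 1061 Cfd UMIs.

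**Figure D4:**
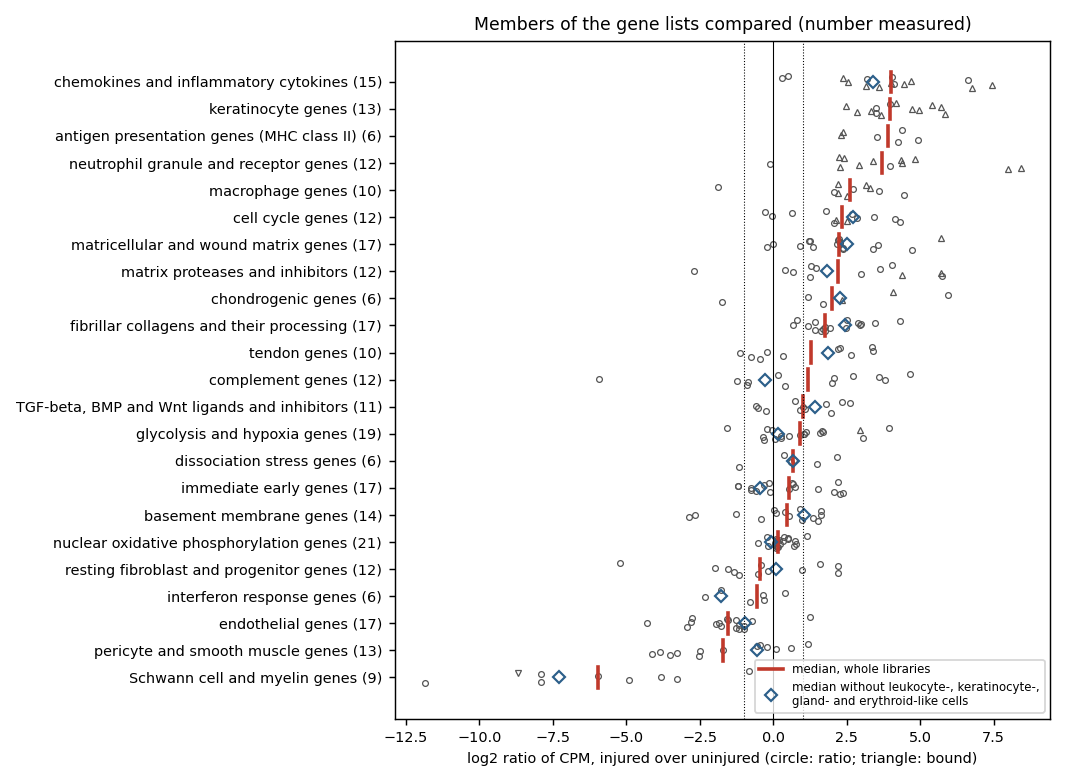
Log2 ratio of CPM, injured over uninjured, for the measured members of each gene list with 5 or more of them (number in brackets; circles are ratios, triangles bounds). Red bars are medians over whole libraries, with bounds entered as values, and blue diamonds medians without leukocyte-, keratinocyte-, gland- and erythroid-like cells, which for fibrillar collagens move from 1.77 to 2.45 and for complement genes from 1.2 to -0.29.

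Genes of Schwann cells and myelin had the largest differences towards the uninjured limb. Of 9 measured genes (15 listed), 8 were at least 2-fold lower in the injured library and 0 higher, with a median log2 ratio of -5.96. The share lower is 88.9%, beside 16.3% of all genes compared. Among these members, the calls of Mal and Mbp were fixed by the filter. Mal, a myelin lipid raft protein, had 0 UMIs against 74 (at least 410-fold lower), and Mbp, myelin basic protein, 51 against 93 (30.3-fold, 21.3 to 43.5), of which 52.9% of the injured UMIs were in monocyte or macrophage-like cells. Pmp22, a myelin protein that fibroblasts also make, had 345 UMIs (85.5 CPM) against 200 (823 CPM), 9.63-fold lower (8.05 to 11.5). The exception was Scn7a, a sodium channel, at 20.8 and 37.1 CPM with an interval that included 1. Several of these genes lead the clusters that define the class. The class is 13 cells in 1 library and 0 in the other, and 31.1% of the uninjured Mal UMIs came from 1 cell.

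Of the other genes with the largest differences towards the uninjured limb, several rested on very few cells. Cytl1, a secreted protein, had 117 UMIs against 0 (at least 648-fold lower), in 4 cells with 78.6% in 1. Gkn3, a gene of arterial endothelium, had 53 against 0 in 2 cells, and Slco1a4, an organic anion transporter, 24 against 0 in 1 cell. Over all 15 genes, 7 had more than 50% of their uninjured UMIs in 1 cell. Timp4, an inhibitor of metalloproteinases, was spread more widely, with 26 UMIs in 11 uninjured cells against 5, and was 86.3-fold lower (32.6 to 288).

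Endothelial genes were lower over the whole libraries for 14 of 17 measured members (18 listed) and higher for 1, with a median log2 ratio of -1.55. The shares are 82.4% lower and 5.88% higher, beside 16.3% and 16.1% of all genes compared. Fabp4, the fatty acid carrier of capillaries, was at 1565 and 4595 CPM (2.94-fold lower, 2.75 to 3.13), and Cldn5, a tight junction protein, at 38.9 and 766 CPM (19.7-fold lower, 15.8 to 24.5). Pecam1, a general endothelial adhesion protein, was 2.25-fold lower (1.80 to 2.79). Plvap, the diaphragm protein of fenestrated vessels, was the member that was higher, at 264 and 111 CPM (2.38-fold, 1.62 to 3.62). Endothelial-like cells held 13.4% of injured and 41.3% of uninjured UMIs, a shift in the direction of the list.

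Pericyte and smooth muscle genes were lower for 7 of 13 measured members (15 listed) and higher for 1, with a median log2 ratio of -1.71. The shares are 53.8% lower and 7.69% higher, beside 16.3% and 16.1% of all genes compared. Acta2, smooth muscle actin, had 4670 UMIs (1158 CPM) against 1625 (6690 CPM), 5.78-fold lower (5.46 to 6.11). Tagln, transgelin, was 11.5-fold lower (10.8 to 12.3) and Myh11, smooth muscle myosin, 17.6-fold lower (14.8 to 20.9). The other 5 members were less than 2-fold apart, among them Rgs5, a pericyte gene, at 347 and 325 CPM. The higher member, Pdgfrb, the receptor for PDGF-B, was 2.29-fold higher (1.30 to 4.47). This class held 9.56% of injured and 23.2% of uninjured UMIs, and 35.6% of the injured Acta2 UMIs lay in mesenchymal-like cells.

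Basement membrane genes, which vessels, nerves and muscle all make, were mixed over the whole libraries, with 4 of 14 measured members higher and 3 lower and a median log2 ratio of 0.46. These are 28.6% and 21.4%, beside 16.1% and 16.3% of all genes compared. The call of Lama5 as lower was fixed by the filter. Col4a1, a chain of collagen IV, was at 822 and 284 CPM (2.89-fold higher, 2.28 to 3.73), and Lama5, a vessel laminin chain, at 9.17 and 57.6 CPM (6.28-fold lower, 3.14 to 11.9).

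Only 2 classes had at least 10 cells in both libraries, and within them the shares of the named classes no longer enter. Transcripts of other classes still do, since free RNA and doublets were not removed. The uninjured endothelial-like class fell below that minimum under 2 other filters. It held 4 cells with at least 500 genes per cell and 7 without cells under 0.5% mitochondrial UMIs. Within endothelial-like cells (26 injured, 17 uninjured), 756 genes reached a class mean of 200 CPM, of which 91 (12.0%) were at least 2-fold higher and 81 (10.7%) lower. All 4 measured basement membrane genes (15 listed) were higher there, with a median log2 ratio of 2.77. Col18a1, at 694 and 99.8 CPM, passed the class mean of 200 CPM only through the injured cells, so its call was fixed by the filter. The same holds for Serpinh1 and Ctla2a, each at 89.8 CPM in the uninjured cells. Col4a1, a chain of the vessel basement membrane collagen, had 1573 UMIs (2903 CPM of the class) against 24 (239 CPM), a ratio of 12.1 (8.12 to 19.0), larger than the 2.89 of the whole libraries. Col4a2 was 6.68-fold higher (4.29 to 11.0), Col18a1 6.96-fold (3.74 to 14.6) and Serpinh1 7.77-fold (4.05 to 17.1). Ctla2a, a cysteine protease inhibitor, had 2445 UMIs in 25 of 26 cells against 9 in 5 of 17 cells, a ratio of 50.3 (26.4 to 110). Plvap, which is among the markers that name the class, was 12.1-fold higher (7.42 to 21.3).

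Other genes were lower within the class, of which Cldn5 is on the endothelial list. Cst3, a secreted protease inhibitor, was at 864 and 6384 CPM (7.39-fold lower, 6.55 to 8.35), Cldn5 at 284 and 1756 CPM (6.18-fold lower, 4.95 to 7.72) and Mgp, an inhibitor of calcification, at 284 and 4369 CPM (15.4-fold lower, 12.8 to 18.6). Over the 15 endothelial genes measured inside the class the median log2 ratio was -0.14, with 1 higher and 4 lower, against -1.55 over the whole libraries. The deepest uninjured cell held 39.8% of the class's uninjured UMIs. Without it the endothelial list had a median of -0.46 over 16 measured genes, with 2 higher and 5 lower. Col4a1 was then 7.62-fold higher (5.06 to 12.1), Cldn5 3.32-fold lower (2.41 to 4.53) and Mgp 25.2-fold lower (20.9 to 30.5). Ptn, a heparin-binding growth factor, had 88 uninjured UMIs, all in that deepest cell. The injured cells of this class were deeper, with a median of 17633 UMIs against 1635.

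Within pericyte or smooth muscle-like cells (54 injured, 13 uninjured), 149 of 755 genes (19.7%) were at least 2-fold higher and 122 (16.2%) lower. All 8 measured fibrillar collagen genes (19 listed) were higher, with a median log2 ratio of 3.83. Some passed the class mean of 200 CPM only through the injured cells, so their call as higher was fixed by the filter. Examples are Col5a1, at 646 and 0 CPM, and Col5a3, at 996 and 35.5 CPM. The calls of Postn, Thy1 and Mgp as higher, and of Pln and Sorbs2 as lower, were fixed in the same way. Genes of other cell types were higher in the same class: the endothelial list summed to 4735 and 692 CPM and the keratinocyte list to 765 and 88.7 CPM. Fabp4, an endothelial and fat cell gene, was at 4302 CPM in 42 of 54 injured cells and at 408 CPM in 7 of 13 uninjured cells. The part of such RNA in the results of this class was not tested. Col1a1 had 2039 UMIs (5290 CPM) in 48 of 54 cells against 18 (319 CPM) in 8 of 13 cells, a ratio of 16.6 (10.5 to 28.0). Postn had 834 against 2 (61.0-fold, 16.8 to 504), Thy1, a surface protein of fibroblasts and pericytes, 346 against 1 (50.6-fold, 9.02 to 2004), and Col5a1 249 against 0 (at least 12.1-fold). Col4a1 was 6.24-fold higher here too (4.44 to 9.05). Mgp, lower in endothelial-like cells, was higher in this class, 837 against 3 UMIs (40.8-fold, 13.9 to 198).

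Of 12 measured pericyte and smooth muscle genes, 6 were lower and 3 higher within this class, and some of them lead its cluster. Tagln was at 3017 and 26420 CPM, 8.76-fold lower (8.10 to 9.46), against 11.5-fold over the whole libraries. Pln, phospholamban, which controls calcium uptake, was 28.5-fold lower (11.4 to 84.9) on 6 and 25 UMIs, and Sorbs2, a cytoskeletal adaptor, 31.0-fold lower (18.7 to 53.9). Without the deepest uninjured cell, which held 30.6% of the class's uninjured UMIs, Tagln was 5.38-fold lower (4.88 to 5.93) and Col1a1 14.8-fold higher (8.78 to 27.1). The class joins pericytes and smooth muscle cells, and a change in their proportions inside it was not tested. As a measure of free collagen RNA, endothelial-like cells, which should lack Col1a1, held 15 UMIs of it (27.7 CPM) in the injured and 5 (49.9 CPM) in the uninjured library. Other injured classes held more. It was at 332 CPM in neutrophil-like, 143 CPM in dendritic-like, 122 CPM in keratinocyte-like and 66.6 CPM in monocyte or macrophage-like cells. The part of free RNA in the Col1a1 ratio of this class was not tested.

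**Figure D5:**
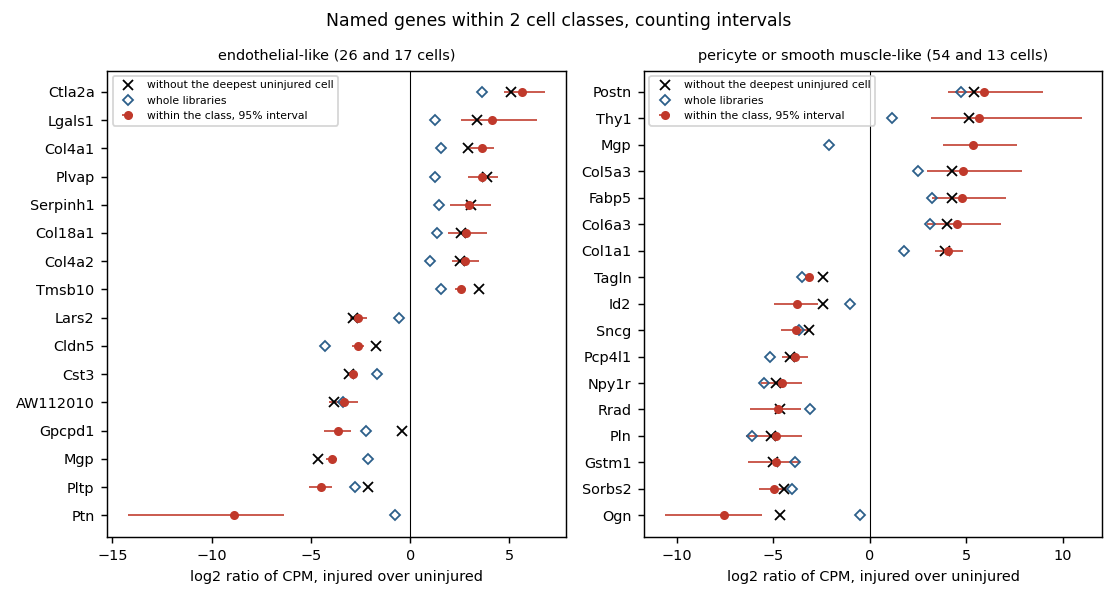
Log2 ratio of CPM within endothelial-like (left) and pericyte or smooth muscle-like cells (right) for the named genes with UMIs in both libraries. Red points are ratios with exact 95% counting intervals, crosses are ratios without the deepest uninjured cell, and blue diamonds are ratios over the whole libraries; Mgp is lower in the left and higher in the right panel.

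Cell cycle genes were higher for 9 of 12 measured members (20 listed) and lower for 0, with a median log2 ratio of 2.33. The shares are 75% and 0%, beside 16.1% and 16.3% of all genes compared. However, 2 members had no uninjured UMI, and their calls, like those of Top2a and Mki67, were fixed by the filter. Top2a, a topoisomerase of dividing cells, had 334 UMIs against 1, a ratio of 20.1 (3.59 to 797), and Mki67 276 against 4 (4.16-fold, 1.60 to 15.4). Mesenchymal-like cells held 67.4% of the injured Top2a UMIs. Pcna, a replication clamp, was at 28.3 and 28.8 CPM.

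Glycolysis and hypoxia genes were higher for 9 of 19 measured members and lower for 1, with a median log2 ratio of 0.91. The shares are 47.4% and 5.26%, beside 16.1% and 16.3% of all genes compared. Pkm, pyruvate kinase, was at 741 and 226 CPM (3.27-fold, 2.51 to 4.36), and Slc16a3, a lactate exporter, had 385 UMIs against 0 (at least 7.73-fold), 49.4% of them in neutrophil-like cells. Without leukocyte-, keratinocyte-, gland- and erythroid-like cells the median of this list was 0.15. All 21 nuclear genes of oxidative phosphorylation were measured, of which 1, Cycs, was at least 2-fold higher and 0 lower, with a median of 0.17.

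Immediate early genes, which dissociation can also induce, were higher for 5 of 17 measured members and lower for 2. These are 29.4% and 11.8%, beside 16.1% and 16.3% of all genes compared. Fos was at 301 and 61.8 CPM (4.87-fold, 2.94 to 8.74) and Klf2, a shear-responsive endothelial factor, at 242 and 560 CPM (2.31-fold lower, 1.92 to 2.77). Neutrophil-like cells held 47.0% of the injured Fos UMIs and endothelial-like cells 94.1% of the uninjured Klf2 UMIs. Without the incoming and skin classes the list's median moved from 0.55 to -0.44. Of 6 measured heat shock and chaperone genes on the dissociation list, Hspe1 and Hspa5 were at least 2-fold higher and Hspb1 lower (33.3% and 16.7%).

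Of 12 measured complement genes 6 were higher and 2 lower (50% and 16.7%, beside 16.1% and 16.3% of all genes compared). The calls of C5ar1, Cfp and C3 as higher and of Cfd as lower were fixed by the filter, so these shares are no evidence about the list. The median log2 ratio of 1.2 was -0.54 with each cell thinned to 500 UMIs. C5ar1, the receptor for the fragment C5a on myeloid cells, had 419 UMIs against 1, a ratio of 25.2 (4.50 to 999), and Cfp, properdin, 465 against 2, a ratio of 14.0 (3.85 to 116). C3, the central component, had 263 against 4 (3.96-fold, 1.53 to 14.6), with 55.5% of the injured UMIs in mesenchymal-like cells.

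The same sums were also made without leukocyte-, keratinocyte-, gland- and erythroid-like cells, which removes by construction most UMIs of the genes that mark those classes. Then 5818 genes were compared, 795 (13.7%) were higher and 977 (16.8%) lower. S100a9 had 199 UMIs left against 0, at least 6.10-fold in place of 342-fold, and for Il1b, Krt14 and Krt6a no fold remained. Fibrillar collagens were higher for 18 of 18 measured members, with a median log2 ratio of 2.45, and Timp1 was at least 76.6-fold higher. Mesenchymal-like cells were still 305 cells on the injured side and 3 on the uninjured side, so this view also differs in its mix. The endothelial list had a median of -0.97 and the smooth muscle list of -0.54.

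The slie/slie mice, which lack Ddr2 function, had the same operation, and their injured and uninjured libraries (246 and 184 cells) share no library with the control pair. They are other mice of another genotype and no replicate, so their values stand here side by side. All 15 of the genes with the largest differences towards the injured control limb were also higher in the slie/slie injured library, with intervals above 1, and 14 of them by at least 2-fold (Krtdap was 1.87-fold higher). Over the 5502 genes compared there, 9.2% were at least 2-fold higher and 11.2% lower. S100a9 was at 5942 and 676 CPM there, a ratio of 8.78 (8.14 to 9.49), and Cxcl2 at 3836 and 18.2 CPM, a ratio of 210 (136 to 345). Of the 15 towards the uninjured limb, 13 were lower there too and 2, Gkn3 and Slco1a4, had too few UMIs for a fold. By list, the medians of the slie/slie pair were 3.47 for neutrophil genes, 4.30 for chemokines, 0.65 for fibrillar collagens, -2.21 for endothelial genes and -4.18 for Schwann cell genes. They were -2.17 for macrophage genes and -2.23 for complement genes, where the control pair had 2.61 and 1.2. The members measured differ: 6 macrophage and 14 complement genes in the slie/slie pair, 10 and 12 in the control pair. Of those 10 macrophage genes, 5 entered the median as bounds, with no uninjured UMI. The difference between the genotypes was not tested.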

How the data were processed

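Single-cell 3′ gene expression was measured with 10x Genomics chemistry, and the authors deposited a matrix of unnormalized UMI counts for each library. Per the file headers it came from Cell Ranger 5.0.1, and per the submitters' processing notes the build was mm10. Barcodes were kept from 200 detected genes upwards and up to 20% mitochondrial UMIs, which left 4032783 UMIs in the injured and 242888 in the uninjured control library. Counts were summed per library and divided by the total (CPM). Genes with a mean of at least 25 CPM over the 2 libraries were compared, 2-fold was the limit for higher and lower, and a sum of 0 gave a bound from 3 counts. Exact 95% Poisson, conditional binomial and Clopper-Pearson intervals cover counting error only, and no test between conditions is possible with 1 library per group. UMIs limit but do not remove this error, since cells of 1 pool are not independent samples.

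All 4 libraries were clustered together (scanpy 1.11.5, leidenalg 0.10.2, 2000 variable genes, 30 components, 15 neighbours, resolution 1). Clusters were named by the share of their fixed markers detected, with limits set after the data were seen, so class shares depend on these names. Scrublet called 0 of 751 injured and 14 of 60 uninjured cells as doublets, and they were kept. A class mean of 200 CPM, the removal of leukocyte-, keratinocyte-, gland- and erythroid-like cells, and the removal of the deepest cells within classes were also chosen after seeing the data. Genes were named by rule: the 15 highest and 15 lowest by the interval bound nearest a ratio of 1 (leaving out mitochondrial, ribosomal, hemoglobin and predicted genes), Ddr2, and the 3 most abundant measured members of each of 25 lists. Within a class, the 10 highest and 10 lowest genes were taken, without genes that lead a cluster. Other list members named, such as Lcn2 and Mertk, were chosen after their values were seen. The comparison, the lists and the rules were chosen with earlier results of these data known. Some genes that the rule names are not reported here, but they enter all counts and medians. Promoters came from RefSeq tables. The scripts were tested on simulated data (Python 3.11.15, numpy 2.4.6, scipy 1.17.1, pandas 2.3.3).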

Additional observations from a re-analysis of the deposited data

Results flagged for a closer look

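The 8 named genes flagged here had a ratio in the slie/slie pair on the other side of 1 from the control pair. They are not a full count of such genes. The difference between the pairs was not tested, since each group has 1 library. The macrophage genes C1qb and C1qa had log2 ratios of 3.59 and 2.08 in the control pair and -2.08 and -2.43 in the slie/slie pair. The secreted matrix genes Col3a1 and Sparc were close to 0 in the slie/slie pair, at -0.18 and -0.56, against 1.42 and 0.90 in the control pair. Comp, a cartilage and tendon matrix protein, was at 1.19 on 303 and 8 UMIs in the control pair and at -3.68 in the slie/slie pair. The lysosomal protease Ctsl was at 1.27 and -1.42, and the metalloproteinase inhibitor Timp2 at 0.66 and -1.32. Tpm1, a tropomyosin of muscle and connective tissue cells, was at -1.11 in the control pair and 0.25 in the slie/slie pair. The unnamed cluster with fibroblast and muscle fibre genes, which held 67 of the 184 slie/slie uninjured cells, held 2 of the 60 control uninjured cells, and its part in these differences was not tested.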

How the results depend on the processing

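The number of genes at least 2-fold lower was 405 with a minimum of 100 genes per barcode, 1380 without the 3 deepest cells of each library, and 1782 with each cell weighted equally. Over all deposited barcodes 1646 genes were higher and 226 lower, and with cells thinned to 500 UMIs 540 and 2188. With a minimum mean of 10 CPM they were 1598 and 1648, and with 50 CPM 473 and 445. Such settings moved the median log2 ratio of all genes, to 0.75 over all barcodes and -0.50 after thinning. Of 405 list medians recomputed, 61 moved and 5 reversed. The reversed medians were those of the TGF-beta, BMP and Wnt list (-0.23 thinned), complement genes (-0.54 thinned, -0.12 with cells weighted equally, -0.29 without leukocyte-, keratinocyte-, gland- and erythroid-like cells) and macrophage genes (-2.59 without those classes).

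Of 1429 ratios of single genes, 299 moved and 26 reversed. Without those same classes the log2 ratio was -2.44 for C1qb, -6.03 for C1qa, -0.27 for Cd68, -1.25 for Cd74, -0.74 for H2-Aa, -1.005 for Nfkbia and -0.0921 for Aldoa. With cells weighted equally it was -0.12 for C1qa, 0.15 for Ifitm3, -0.46 for Comp, -0.50 for Cox7c, 0.31 for Jund and -0.59 for Timp2. After thinning it was -1.43 for Comp, -0.00846 for Cox7c, 0.24 for Jund and -0.60 for Timp2. Over all barcodes it was 0.42 for Ifitm3, -0.57 for Comp and 0.0299 for Jund. It was 0.0926 for Ifitm3 with a minimum of 100 genes, -0.22 for Nfkbia without cells under 0.5% mitochondrial UMIs, -0.0837 for Cox7c without called doublets and -0.14 without the 3 deepest cells. Without the cell with the most UMIs of the gene in each library, it was 0.0402 for Apod and 1.34 for Dcn. The cause of these reversals was not tested. The neutrophil-like share of injured cells was 14.1% with the control libraries clustered alone and 6.18% without cells under 0.5% mitochondrial UMIs. The endothelial-like share of uninjured cells was 9.76% with at least 500 genes and 12.3% without cells under 0.5% mitochondrial UMIs. No class had 20 cells in both libraries, so that minimum gave no value. No paired analysis was possible because each group had 1 library, and no library could be left out. The 242888 uninjured UMIs limit every ratio.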
